A study of Homo sapiens with 8 samples.

Results

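Open regions near the ends of human chromosomes were examined in U2OS cells by FAIRE-seq. In this assay cells are fixed with formaldehyde and the DNA that stays free of cross-linked nucleosomes is extracted and sequenced, and peaks therefore mark open chromatin. Overlapping peaks of the 8 libraries on chromosomes 1 to 22 (1 bp or more in common) made up 51186 regions. Of these, 731 lay within 500 kb of an end of a GRCh38 chromosome and are called subtelomeric here. A further 4170 regions lay 2 to 5 Mb from an end and served as the comparison. The choice used position alone, not peak strength or genotype. At the 500 kb limit, the last region inside was near COLEC12 on 18p at 499.949 kb, in 4 lists with fold enrichments of 2.98 to 4.59, and the first outside was near GAS6 on 13q at 500.024 kb, in 7 lists with fold enrichments of 4.94 to 28.3.

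U2OS is an osteosarcoma line. All samples were clones of it, 2 wild type (WT_4 and WT_5) and 2 with a knockout (KO) of ZBTB48 (KO_C5 and KO_D2). From each clone came 1 untreated library and 1 from cells given 250 U/ml interferon gamma (IFNγ), for 24 h by the labels and longer by the study's text, so the duration is uncertain. This makes 4 groups of 2 libraries, where replicate 1 is WT_4 or KO_C5 and replicate 2 is WT_5 or KO_D2. Peak lists do not measure ZBTB48, so its loss was not checked here.

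ZBTB48, also named TZAP, is a zinc finger protein that binds the telomere repeat TTAGGG as well as promoters of single genes. Telomeres end in long arrays of this hexamer, and inward of them lie subtelomeres, mosaics of duplicated segments that give way to unique, gene-rich sequence. Transcripts of telomere repeats (TERRA) start from CpG-rich promoters just inside the arrays, and CTCF, an insulator protein, is known to bind there. U2OS cells keep their telomeres by recombination rather than by telomerase. The assembly holds only a short stretch of repeat at its ends, and reads of low mapping quality had been removed, so the arrays themselves were not analysed here.

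The regions nearest to an end formed a small group of their own. Within 25 kb of an end there were 8 regions on 6 arms, at distances of 10.4 to 11.5 kb from the chromosome's end, and the next region inward lay at 38.7 kb. The first 10 kb of these arms are unsequenced (N) in the assembly, so the 8 regions began 381 to 1451 bp inside the first assembled base. None contained TTAGGG in 2 tandem copies, but each lay 42 to 933 bp from such a repeat. Of the 39 arms with assembled sequence, 25 had tandem TTAGGG within 1 kb of the assembled end, and the 6 arms with these regions were among them. Of the 6 regions nearest to an end, that on 2p (10634 bp from the end) lay nearest to tandem TTAGGG, at 42 bp, and is not shown. Stretches of the other 5 are shown as forward-strand GRCh38 sequence. The first 3 are 126 or 150 bases from the regions on 11q (chr11:135075874-135076023), 16p (chr16:10921-11046) and 13q (chr13:114352887-114353036), with a match to the core of the CTCF motif (CCA, any 2 bases, AG, any base, GGGC) in capitals (on 16p on the reverse strand).
11q, 10.5 kb: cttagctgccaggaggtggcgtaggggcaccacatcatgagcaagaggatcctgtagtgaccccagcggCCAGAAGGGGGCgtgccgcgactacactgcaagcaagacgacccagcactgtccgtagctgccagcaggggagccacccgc
16p, 10.9 kb: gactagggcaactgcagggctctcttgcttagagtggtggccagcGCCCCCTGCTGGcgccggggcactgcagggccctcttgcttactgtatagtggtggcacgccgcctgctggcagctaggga
13q, 10.99 kb: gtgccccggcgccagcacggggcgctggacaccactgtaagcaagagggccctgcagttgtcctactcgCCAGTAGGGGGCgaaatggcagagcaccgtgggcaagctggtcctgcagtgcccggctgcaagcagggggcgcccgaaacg
The last 2 are the 150 bases around the highest summit of the regions on 16p (chr16:10424-10573) and 4q (chr4:190203671-190203820), which had no such match, with each CG in capitals. They hold 16 and 29 CG, respectively.
16p, 10.4 kb: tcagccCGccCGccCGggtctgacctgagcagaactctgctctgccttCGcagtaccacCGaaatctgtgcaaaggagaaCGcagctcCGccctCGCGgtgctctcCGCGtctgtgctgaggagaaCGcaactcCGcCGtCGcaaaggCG
4q, 10.7 kb: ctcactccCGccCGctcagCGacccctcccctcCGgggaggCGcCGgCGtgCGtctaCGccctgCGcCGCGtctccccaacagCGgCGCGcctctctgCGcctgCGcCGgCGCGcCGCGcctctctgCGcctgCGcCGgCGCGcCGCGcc

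The core of the CTCF motif was searched on both strands and was chosen after these sequences had been seen. It was in 5 of the 8 regions, in 32 of the 731 subtelomeric regions (4.38%), in 4.29% of the regions 2 to 5 Mb from an end and in 3.76% of all regions. Within 150 bp of the summit, windows of equal length, the shares were 3.97%, 3.48% and 3.15%. A match describes the letters only and not a bound site. The observed-over-expected CpG ratio of the 8 regions ranged from 0.392 to 1.20.

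The region on 13q (chr13:114352577-114353338, intergenic, 6410 bp from the start of the pseudogene RPL23AP97) was the only one of the 8 present in every list. Fold enrichment is the fragment pileup at the summit over the local background, with 1 added to each. For this region it was 11.8 and 10.2 in untreated WT, 8.15 and 12.1 in untreated KO, 9.72 and 18.95 in IFNγ-treated WT and 11.9 and 11.5 in IFNγ-treated KO (replicates 1 and 2). The WT and KO values overlapped. The log2 pileup, with each library centred on its median, was 0.25 ± 0.38 higher in WT (SE, n = 2 clones each, limma adjusted p = 1.00), which did not differ beyond the spread between clones. The region on 16p at 10.9 kb (chr16:10921-11183), 372 bp from the start of DDX11L16, a copy of a duplicated subtelomeric family, was in 5 lists, 2 WT and 3 KO, with fold enrichments of 9.88 and 13 in WT and 7.99 to 10.1 in KO. The region on 11q (chr11:135075800-135076136), at the start of the lncRNA LINC02684, was in 4 lists, 2 WT and 2 KO, with fold enrichments of 6.42 to 10.1. The other 5 regions were in 1 to 3 lists.

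All 8 regions had a peak in the IFNγ-treated WT_5 library, the longest list, and 3 of them, on 16p at 10.4 kb, 2p at 10.6 kb and 4q, had one in no other list. Without that library 5 of the regions remained. In 4 of the 8 regions more than 50% of the 32-base stretches occur more than once in the genome (59.5% on 13q, 80.6% on 16p at 10.9 kb, 84.3% on 9p and 86.0% on 4q), so a read there may match several places. The part of this duplication in the pattern of presence was not tested.

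**Figure D1:**
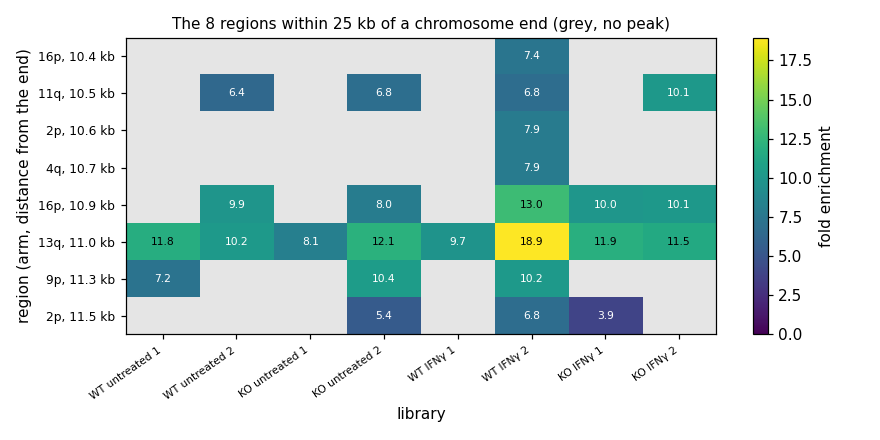
Fold enrichment of the 8 regions within 25 kb of a chromosome end (rows, named by arm and distance) in the 8 libraries (columns, with replicate number); grey marks libraries with no peak. The 13q region has a value in every library, from 8.15 to 18.95, and the IFNγ-treated WT replicate 2 library has a value in every region.

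Next, the presence of subtelomeric regions was counted per library. Untreated WT libraries held 378 and 351 of them, and untreated KO libraries 218 and 241. After IFNγ there were 246 and 515 in WT and 313 and 335 in KO. Libraries also differed in all their regions, with 20888 and 27828 in untreated WT and 18238 and 15618 in untreated KO. After IFNγ these totals were 17783 and 35717 in WT and 25772 and 23277 in KO. As a share of the totals the genotypes overlapped, as given with the genotype comparison. Of the 731 regions, 170 were present in all 8 lists (23.3%, against 18.4% of the regions 2 to 5 Mb from an end and 22.03% of all regions), 244 were in 2 to 7 lists and 317 in only 1 (43.4%, against 44.3% and 39.2%). 2 libraries held most of the last class, with 138 in IFNγ-treated WT_5 and 95 in untreated WT_4. Without the IFNγ-treated WT_5 library 593 regions remained, and without the untreated WT_4 library 636.

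Taken over all arms together, the density of regions was higher near the ends than 2 to 5 Mb inward in every library. There were 17.87 Mb of assembled sequence within 500 kb of an end and 116.8 Mb at 2 to 5 Mb. Per library, 12.2 to 28.8 regions per Mb lay within 500 kb and 9.11 to 25.0 at 2 to 5 Mb, a mean of 18.2 ± 5.38 against 14.6 ± 5.21 (SD, n = 8 libraries). The ratio was 1.39 and 1.13 in untreated WT, 1.34 and 1.46 in untreated KO, 1.26 and 1.15 in IFNγ-treated WT and 1.12 and 1.31 in IFNγ-treated KO. On the log2 scale the mean difference was 0.34, higher in 8 of 8 libraries (exact sign-flip permutation test, two-sided, p = 0.00781, the smallest it can give; adjusted p = 0.0104 over 4 measures). The test covers the spread between libraries, which share 1 genome, and not the spread between arms. Arm by arm, the density over all libraries was higher near the end in 18 of 39 arms. The difference also turned with the window. Within 250 kb of an end the log2 difference was -0.12 (adjusted p = 0.146), and within 1 Mb it was 0.65.

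The regions were spread unevenly with distance. Over all libraries, 22.2 regions per Mb lay within 25 kb of an end, 16.9 at 25 to 50 kb, 28.9 at 50 to 100 kb and 25.5 at 100 to 200 kb, all below the 35.7 per Mb found 2 to 5 Mb inward. The density was 40.05 at 200 to 300 kb, 56.1 at 300 to 400 kb and 52.1 at 400 to 500 kb. The share of 32-base stretches that occur more than once fell over the same bins, from 75.7% within 25 kb and 42.5% at 100 to 200 kb to 20.3% at 400 to 500 kb, against 13.1% at 2 to 5 Mb. Next, all regions of a bin were divided by the Mb of its sequence that occurs once. This gave 91.4 within 25 kb, from only 8 regions, 41.7 at 25 to 50 kb, 55.6 at 50 to 100 kb and 44.3 at 100 to 200 kb. In the 3 bins from 200 to 500 kb it gave 51.7, 69.2 and 65.4. Regions in duplicated sequence stayed in the count, which raises these values most where duplication is high. Counted in the same way, the log2 difference in density between the zones was 0.65 (exact sign-flip permutation, adjusted p = 0.0104). It is raised likewise, and the setting was chosen after the data were seen.

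**Figure D2:**
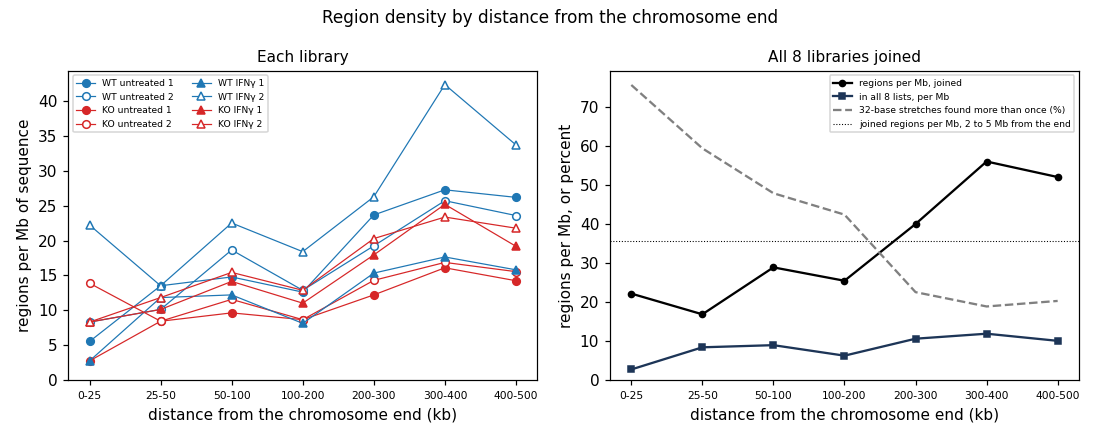
Regions per Mb of assembled sequence by distance from the chromosome end (kb), for each library at left (blue WT, red KO; circles untreated, triangles IFNγ; filled replicate 1, open replicate 2) and for the joined regions at right, with regions in all 8 lists, the percent of duplicated 32-base stretches (dashed) and the density 2 to 5 Mb inward (dotted). The joined density rises from 25.5 at 100 to 200 kb to 56.1 at 300 to 400 kb, while duplicated sequence falls from 42.5% to 18.9%.

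The subtelomeric regions lay at promoters more often than those further in. Promoters were windows reaching 500 bp up- and downstream of any transcription start site (TSS) in the annotation. Of the 731 regions, 340 (46.5%) were at a promoter, against 33.8% at 2 to 5 Mb. Per library the share was 67.6% ± 9.35 against 55.0% ± 10.9 (SD, n = 8), 12.5 percentage points more and higher in 8 of 8 libraries (exact sign-flip permutation p = 0.00781, adjusted p = 0.0104). Among regions in all 8 lists 90.6% were at a promoter, and among those in 1 list 30.3%. By annotation, 247 regions overlapped an untranslated region, 62 a coding exon but no untranslated region, 81 an exon of a non-coding transcript alone and 199 only an intron, and 142 were intergenic. The median GC content was 65.3%, against 63.2% at 2 to 5 Mb and 59.9% over all regions. The zone held 297 protein-coding and 300 lncRNA genes in 17.87 Mb, against 1137 and 1283 in the 116.8 Mb at 2 to 5 Mb. Genes were thus denser near the ends, and the part of this in the promoter share was not tested.

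Peaks were also stronger near the ends as a whole. The median fold enrichment was 10.1 to 19.1 per library within 500 kb and 9.04 to 15.02 at 2 to 5 Mb, a mean log2 difference of 0.21 (higher in 8 of 8 libraries, exact sign-flip permutation p = 0.00781, adjusted p = 0.0104). The difference was not found within either class of region. It was 0.035 among regions at promoters (adjusted p = 0.281) and -0.050 among those away from promoters (adjusted p = 0.25), both chosen as settings after the data were seen, and within 1 Mb of an end it was 0.040 (adjusted p = 0.555). The local background was lower within 500 kb in 5 of 8 libraries, tied in 2 and higher in 1, by a mean of 0.06 on the log2 scale, which was not beyond the spread (exact sign-flip permutation p = 0.188, adjusted p = 0.188). The 2 libraries of a clone are not fully independent. Over 4 clone means the exact sign-flip permutation test cannot go below p = 0.125, and each of the 3 called measures had that value.

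**Figure D3:**
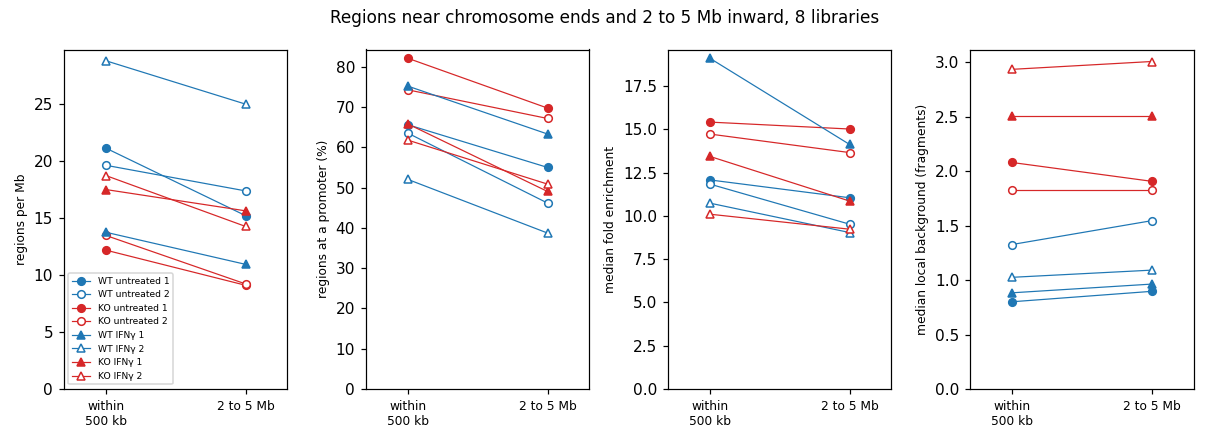
Regions per Mb, percent of regions at a promoter, median fold enrichment and median local background (fragments) within 500 kb of an end and at 2 to 5 Mb; each line joins the 2 values of 1 library (blue WT, red KO; circles untreated, triangles IFNγ; filled replicate 1, open replicate 2). The first 3 measures fall from left to right in all 8 libraries, and the background lines differ mainly between WT and KO.

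Chromosome arms differed widely. All 39 arms with assembled sequence had at least 1 region and the median arm had 11, while the short arms of chromosomes 13, 14, 15, 21 and 22 hold no assembled sequence in this window. The 6 richest arms, 7p (65 regions), 22q (64), 13q (58), 17q (50), 16q (43) and 16p (35), held 43.1% of all regions. At the other extreme 1p, 3p, 6p and 8p had 2 regions each. On 1p, where 96.2% of 32-base stretches are duplicated, neither region was in all 8 lists. Regions per Mb exceeded those at 2 to 5 Mb on the same arm in 18 of 39 arms. Across the 39 arms density rose with GC content (Spearman's rho = 0.74), a description only, since the arms share their libraries.

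The 6 richest arms differed in how constant their regions were. On 16p 10 of 35 regions were in all 8 lists and 60% were at a promoter, on 22q 10 of 64 and 64.1%, on 16q 9 of 43 and 53.5%, and on 17q 4 of 50 and 30%. On 7p 3 of 65 regions were in all 8 lists and 13.8% were at a promoter, and on 13q these values were 5 of 58 and 13.8%. The counts on 7p were 36 and 19 in untreated WT, 5 and 14 in untreated KO, 15 and 31 in treated WT and 15 and 30 in treated KO. The 7p regions fell nearest to 3 protein-coding genes, FAM20C, a secretory pathway kinase (27 regions), PDGFA, a growth factor (23), and FOXL3, a forkhead gene (15). On 13q, 27 regions were nearest to RASA3, a Ras GTPase-activating protein, and 25 of these were in the IFNγ-treated WT_5 list against 1 to 10 in the other lists. On 19q, by contrast, 22 of 29 regions were in all 8 lists, 89.7% were at a promoter and the libraries held 23 to 28 of them. 5 arms had no region in all 8 lists. On no arm did the 4 WT counts all lie above the 4 KO counts or the reverse. At 2 to 5 Mb, all 4 WT counts lay above all 4 KO counts on 1 of 39 arms (2.56%) and the reverse on 0 (0%).

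**Figure D4:**
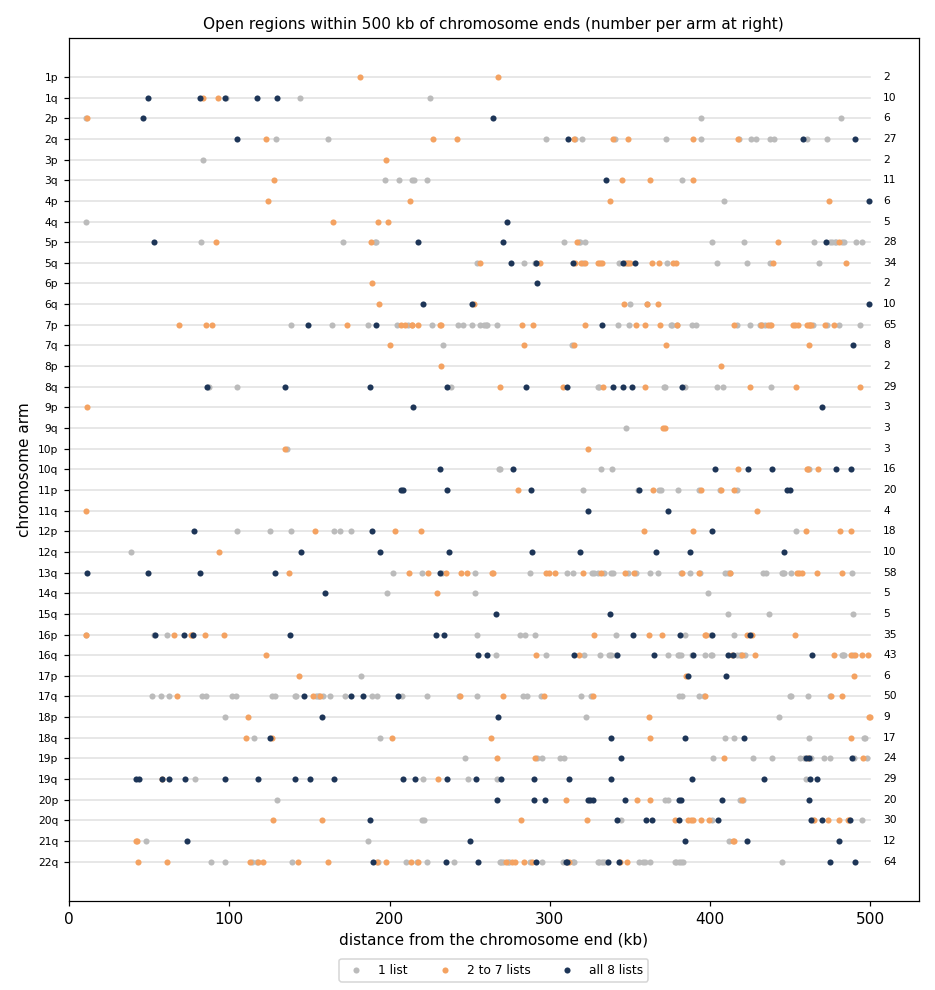
Each subtelomeric region by distance from its chromosome end (kb) on its chromosome arm, coloured by the number of lists that hold it, with the number of regions per arm at right. Regions in all 8 lists line up along 19q, while 7p, 13q, 17q and 22q hold many regions in 1 list or in 2 to 7 lists.

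The 10 strongest of the 170 constant regions, ranked by their mean percentile of −log10 p within each list, were all promoters with CpG-rich sequence. The highest was the promoter of ZNF7, a zinc finger gene on 8q (chr8:144826571-144827880), with fold enrichments of 217.7 and 102.5 in untreated WT, 84.8 and 70.04 in untreated KO, 110.5 and 96.9 in treated WT and 80.6 and 50.75 in treated KO. Next came ZNF250 and RPL8, which encodes a ribosomal protein, on the same arm, B3GNTL1, a glycosyltransferase-like gene, on 17q, CHAMP1, a gene of chromosome alignment, on 13q at 49.4 kb from the end, C17orf97 on 17p, ZNF251 on 8q, PDCD6 on 5p, LMLN on 3q and CHKB-CPT1B on 22q. Over these 10 regions the fold enrichment ranged from 30.9 for ZNF251 in IFNγ-treated KO_D2 to 258.5 for PDCD6 in untreated WT_4. Fold enrichment as such differed between the genotypes over all constant regions, as given with the genotype comparison.

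By gene class, 210 of the 297 protein-coding genes with a TSS in the zone had a region at a promoter in at least 1 list (70.7%), and 155 in all 8 (52.2%). At 2 to 5 Mb these shares were 74.1% and 54.9% of 1137 genes. For lncRNA genes they were 29.3% and 17.0% of 300, against 29.2% and 14.4% of 1283. Genes named ZNF and a number, which encode zinc finger proteins, many of them repressors of transposable elements, had an open promoter in 29 of 33 cases (87.9%), 25 in all 8 lists (75.8%). At 2 to 5 Mb both shares were higher, with 34 of 36 (94.4%) and 30 (83.3%). The exceptions were ZNF132 on 19q, ZNF595 and ZNF732 on 4p and ZNF750 on 17q, the last an epidermal factor, which were in no list. ZNF596 on 8p and ZNF718 on 4p were in 4 lists each, ZNF141 in 5 and ZNF268 in 6. ZNF141 had a fold enrichment of 16.4 and 22.6 in the WT_5 libraries, 8.496 and 12.4 in those of KO_D2 and 18.2 in treated KO_C5, and no peak in WT_4 or untreated KO_C5. ZNF268 likewise had no peak in untreated WT_4 and untreated KO_C5, so that in untreated cells presence at these promoters differed between clones of 1 genotype. After IFNγ ZNF268 had a peak in both of these clones (7.46 in WT_4 and 18.8 in KO_C5). On 19q the constant regions also included the promoter of TRIM28, the corepressor that many of these proteins recruit, named here after its values were seen. Its fold enrichment was 85.2 and 35.6 in untreated WT, 24.3 and 22.7 in untreated KO, 47.5 and 46.3 in treated WT and 18.1 and 19.25 in treated KO, without centring. Uncentred fold enrichment was higher in WT over all constant regions, by a median of 0.56 on the log2 scale. The centred log2 pileup of TRIM28 was 0.22 ± 0.37 higher in WT (SE, n = 2 clones each, limma unadjusted p = 0.574), within the spread between clones.

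The alpha globin cluster on 16p had no open promoter. HBZ, HBM, HBA2, HBA1 and HBQ1, the erythroid globin genes, had a promoter region in 0 of the 8 lists, whereas 12 neighbours listed as widely expressed each had one, 10 of them in every list. Of the 4 other protein-coding genes in this window, PGAP6 was open in all 8 lists, PDIA2 only in untreated WT_4 and RGS11 and ARHGDIG in 0, so closed promoters were not limited to the globin genes. The exceptions among the 12 were MRPL28, a mitochondrial ribosome gene, and NME4, a nucleoside diphosphate kinase gene, which were in 7 lists and lacked a peak in untreated KO_D2. POLR3K and SNRNP25, which encode an RNA polymerase III subunit and a minor spliceosome protein, share a promoter with fold enrichments of 30.0 to 101.4. NPRL3, whose introns hold the distal globin enhancers, had a promoter with 32.65 to 76.0.

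Genes linked to interferon were few. TYMP, thymidine phosphorylase, on 22q had a promoter region in all 8 lists, but this region (chr22:50524940-50527263) lies at starts of short TYMP transcripts and of SCO2, a mitochondrial copper chaperone gene, whose start is the nearest. Its fold enrichment was 62.3 and 35.03 in untreated WT, 66.8 and 30.6 in untreated KO, 28.25 and 56.2 in treated WT and 50.2 and 34.0 in treated KO. The untreated and treated values overlapped. The regions at the start of the full-length TYMP transcripts were in 2 lists (chr22:50529170-50529877, 6.09 in untreated WT_4 and 3.98 in treated WT_5) and in 1 list (chr22:50530323-50530664). Of the antiviral IFITM genes on 11p, IFITM3 had a promoter peak in 1 list, IFNγ-treated KO_D2 (5.22), and IFITM1, IFITM2 and IFITM5 had none, nor had IRF4, a lymphoid factor, on 6p. Members of families that are copied between chromosome ends (WASH, DDX11L, FAM138, OR4F, DUX4 and others) had an open promoter in 3 of 102 cases and in 0 of 102 in every list. The 3 were DDX11L16 on 16p in 5 lists, RPL23AP53 on 8p in 4, whose region it shares with ZNF596, and RPL23AP7 on 22q in 2. How far low mapping quality in copied sequence contributes was not tested.

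WT and KO were compared next, to ask whether the loss of a telomere-binding protein went with a change in open chromatin near the ends. The share of a library's regions that were subtelomeric was 1.81% and 1.26% in untreated WT, 1.20% and 1.54% in untreated KO, 1.38% and 1.44% in treated WT and 1.21% and 1.44% in treated KO. The values of the genotypes overlapped. Averaged per clone, WT had a share of 1.47% ± 0.173 and KO of 1.35% ± 0.202 (SD over 2 clones). WT was 0.126 percentage points higher, which was within the spread between clones (exact permutation test over 6 assignments, two-sided, p = 0.667, where the smallest possible is 0.333). It was 0.0166 points without untreated WT_4 and 0.232 without treated WT_4, and 0.0202 within 250 kb of an end and 0.613 within 1 Mb. For IFNγ, the share was 1.37% ± 0.107 in treated and 1.45% ± 0.282 in untreated libraries (SD, n = 4), a difference of -0.0826 percentage points (exact permutation p = 0.686). It was -0.426 and 0.181 in the clones WT_4 and WT_5 and 0.0192 and -0.104 in KO_C5 and KO_D2, so the clones moved in both directions, and without the untreated WT_4 library the difference was 0.0393.

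The height of constant regions was compared as log2 summit pileup. Relative to the constant regions 2 to 5 Mb from an end, the subtelomeric ones had a median log2 pileup that differed by -0.05 ± 0.09 in WT clones and by -0.03 ± 0.11 in KO clones (SD over 2 clones). The difference between genotypes, -0.01, was within the spread between clones (exact permutation p = 0.667). In a limma fit over all 11275 constant regions, each library centred on its median, 0 regions differed by genotype at an adjusted p under 0.05 (0% of those tested). An unadjusted p under 0.05 was found in 33 regions (0.293%), none of them subtelomeric. With 2 clones per genotype the fit has little power, so 0 calls do not show that the genotypes are alike. The median log2 difference, WT minus KO, was 0.00 over the 170 subtelomeric regions, 0.01 over the 769 at 2 to 5 Mb and -0.01 over all. By treatment 0 regions differed as well (0%), with 666 at an unadjusted p under 0.05, 4 of them subtelomeric. With the clone as a block 9 regions (0.0798%) differed by treatment, 0 of them subtelomeric.

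Single regions stood out little. All 4 WT values lay above all 4 KO values in 1 of the 170 subtelomeric constant regions (0.588%), against 0.692% of all constant regions. It was the promoter shared by ZNF544 and ENSG00000283515 on 19q (chr19:58228502-58229207), whose centred log2 pileup was -0.51 and -0.62 in untreated WT, -0.96 and -1.14 in untreated KO, -0.20 and -0.29 in treated WT and -0.94 and -0.69 in treated KO. The difference was 0.53 ± 0.32 (SE, n = 2 clones each, limma adjusted p = 1.00). The reverse was found in 1 region (0.588%), against 0.718% of all. It was the promoter of ZNF250 on 8q, with a difference of -0.33 ± 0.22 (SE, limma adjusted p = 1.00). The largest difference in either direction, at TRIB3, a stress-induced pseudokinase gene on 20p (chr20:380469-381471), was -1.08 ± 0.67 (SE, limma adjusted p = 1.00), and its groups overlapped. This region was named after its value was seen. On some arms the differences shared a sign. The 10 constant regions of 8q, ZNF250 among them, ran from -0.46 (ZNF252P) to -0.185 (ZNF251). The 5 of 21q ran from 0.36 (YBEY) to 0.51 (PCNT). Those of 5q had both signs, from -0.21 to 0.15. These arms were named after their values were seen, and differences between arms were not tested.

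Fold enrichment itself was higher in WT over the constant regions, near the ends and elsewhere. Without centring it was 0.61 higher in WT on the log2 scale in the median over the subtelomeric constant regions, 0.60 at 2 to 5 Mb and 0.56 over all constant regions. Then 419 of all 11275 constant regions were called, with 12 of the 170 subtelomeric ones and 37 of the 769 at 2 to 5 Mb. The share called was thus higher near the ends than over all constant regions, a difference that was not tested. This setting, without centring, was chosen after the data were seen. Once centred, fold enrichment gave 0 calls. Over all regions of a library, constant or not, fold enrichment was not higher in WT throughout. Its median within 500 kb was 12.1 and 11.8 in untreated WT and 15.4 and 14.7 in untreated KO. In treated WT it was 19.1 and 10.7 and in treated KO 13.4 and 10.1. The local background moved with genotype. In subtelomeric constant regions its median was 1.40 to 1.54 times the lowest background of the library in WT and 2.90 to 3.02 times in KO, and over all constant regions it was 1.65 to 1.76 and 3.05 to 3.16 times. Its part in the presence or absence of weak peaks was not tested.

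**Figure D5:**
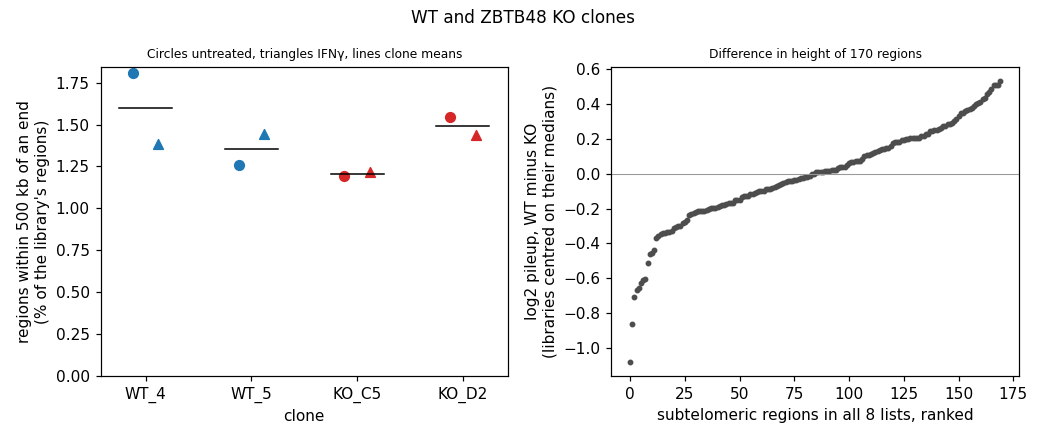
Left, percent of each library's regions that lie within 500 kb of a chromosome end, by clone (circles untreated, triangles IFNγ, lines clone means); right, the difference in centred log2 pileup, WT minus KO, of the 170 subtelomeric regions in all 8 lists, in rank order. The clone means are 1.60% and 1.35% in WT and 1.205% and 1.49% in KO, and the differences run from -1.08 to 0.53.

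Presence was then set against genotype. A region was called WT-only when every WT library and no KO library had a peak, and KO-only in the reverse case. Over all 8 libraries there was 1 subtelomeric WT-only region (0.137%), against 0.207% of all regions, and 0 KO-only regions, against 0.0117%. In untreated cells 25 were WT-only (3.42%, against 2.45% of all and 3.67% at 2 to 5 Mb) and 0 KO-only (0.174% of all). After IFNγ 7 were WT-only (0.958%, against 1.15%) and 0 KO-only (0.770%). The number of peaks also differed, and when all lists were cut to 16311 peaks, the length of the shortest, the WT-only counts were 0 over all libraries, 6 in untreated cells and 9 after IFNγ, and the KO-only counts 0, 0 and 4. Shares over all regions are not given here for lists of equal length, so these counts cannot be set against the genome.

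The WT-only region over all libraries lay in B3GNTL1 on 17q (chr17:82960467-82961183, overlapping a coding exon, 149 bp from a TSS). Its fold enrichment was 6.75 and 4.08 in untreated and 4.64 and 4.71 in treated WT, from summit pileups of 7 to 11 fragments, close to the 5 or 6 that could be called. In lists of equal length it was left in 1 WT list. Of the untreated WT-only regions, that in SBF1 on 22q, a gene of a myotubularin-related protein, had the highest percentile, with fold enrichments of 10.7 and 13.05 in untreated WT, and it was present in both treated KO lists (16.1 and 10.3). Next were C13orf46 on 13q (7.44 and 17.7), ENSG00000278000 on 18q (16.2 and 13.35) and SCGB1C2 on 17p (16.9 and 11), each of which had a peak in 1 treated KO list. CALY on 10q and SPIRE2 on 16q had peaks in both treated KO lists, and ENSG00000263612 on 8q and ENSG00000249574 on 7p in neither.

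Among the regions WT-only after IFNγ, that in an intron of NPRL3 on 16p (chr16:96967-97289), 871 bp from a TSS, had the highest percentile, with fold enrichments of 7.97 and 7.645 in treated WT and 10.7 in untreated WT_4. Those near PARD6G on 18q, ARHGAP39 on 8q and RPH3AL on 17p each had a peak in untreated KO_C5, whereas those near FAM20C on 7p and RASA3 on 13q had none in KO. Counting any number of lists, 323 subtelomeric regions had peaks in WT lists alone (44.2%) and 48 in KO lists alone (6.57%), against 45.3% and 7.72% at 2 to 5 Mb and 35.4% and 11.4% of all regions.

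Regions gained or lost with IFNγ in all clones were rare. 1 subtelomeric region was gained (0.137%, against 0.127% of all) and 0 were lost (0.00195% of all). The gained region was intergenic on 16p (chr16:362083-362736), 7489 bp from a TSS of MRPL28. Its fold enrichment was 5.55 and 13 in treated WT and 10.3 and 7.65 in treated KO, and it had no peak in the 4 untreated lists. Between the untreated and treated list of a single clone more regions differed. WT_4 kept 218 subtelomeric regions, gained 28 and lost 160, while WT_5 kept 318, gained 197 and lost 33. KO_C5 kept 206, gained 107 and lost 12, and KO_D2 kept 227, gained 108 and lost 14. List length moved with these counts, from 21270 to 18526 peaks in WT_4, from 28929 to 36776 in WT_5, from 18856 to 26813 in KO_C5 and from 16311 to 24148 in KO_D2, and its part in them was not tested. Of all regions in the treated list of a clone 17.7% to 41.5% were gained, against 11.4% to 38.3% of the subtelomeric ones. Of all regions in the untreated list 29.9% were lost in WT_4, against 42.3% of the subtelomeric ones, and in the other 3 clones 6.19% to 17.4% were lost, against 5.51% to 9.40%.

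Finally, the telomere hexamer was searched on both strands. TTAGGG was in 79 of 731 subtelomeric regions (10.8%, 95% Wilson interval 8.76 to 13.3), in 10.1% of regions at 2 to 5 Mb and in 11.1% of all. The control hexamer GTGAGT was in 21.6%, 24.3% and 23.9%. Tandem TTAGGG was in 0 of 731 subtelomeric regions (upper Wilson limit 0.523%) and in 9 regions genome-wide, although the assembled sequence within 500 kb of the ends holds 1629 positions of it, against 70 at 2 to 5 Mb. Of these positions 225 lay within 1 kb of a region. The number of TTAGGG per kb was 0.523 in the sequence of the zone, tandem copies included, and 0.227 in its regions, against 0.357 and 0.222 at 2 to 5 Mb. These counts describe letters, and reads from tandem repeats may have been removed by their mapping quality, which was not tested.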

How the data were processed

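FAIRE-seq peak lists of 8 U2OS libraries were used, with no read counts. Per the labels, the authors used Trimmomatic, Bowtie2 2.2.5, SAMtools 1.14, MACS2 2.2.7.1 and deepTools 3.5.1 with GRCh38. Reads of low mapping quality were removed and peaks called per library, before any step on reproducibility. Use of a control and treatment of duplicates are not given in the sources used here. Deposited fold enrichment is the ratio of pileup to local background with 1 added to each, so at low backgrounds it is lower than the plain ratio. The caller also wrote a −log10 of p and of q for each deposited peak (lowest −log10 q 1.30); the deposited score was not used. Depth is not given by peak lists. Instead, the summit pileup and local background of each peak were solved from its fold and p with the Poisson tail that MACS2 uses, and 100% of 191629 peaks fitted a whole number of fragments within 0.01. The lowest background per library was 0.621 to 1.08 fragments, and it stands in for depth.

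Peaks were joined at 1 bp overlap, and distances are from the end of the GRCh38 sequence to the nearest base of a region. Genes, TSSs and untranslated regions came from GENCODE 44, which uses the same build. 32-base stretches were sampled every 50 bases and counted on both strands of chromosomes 1 to 22, X and Y. Library measures were tested by exact permutation, two-sided, over clones (6 assignments), libraries (70) or sign flips (256), and constant regions by limma 3.58.1 in R 4.3.3 with Benjamini-Hochberg adjustment at 0.05. Code was tested on simulated data. Labels do not say whether samples of a clone came from separate cultures, so p-values measure the spread between these samples, which may be technical.

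The labels pair each clone's untreated library with its treated one. Deviations of such pairs from group means correlated at 0.70 (WT) and 0.41 (KO) over 11275 regions. Members, gene lists and tests were chosen with earlier results of these data known. Named regions were the 10 strongest constant ones, up to 8 of each presence class by mean percentile, up to 6 per direction with no overlap of WT and KO, the 6 nearest to an end and those at promoters of the gene groups. Regions are named by the nearest TSS. Alternatives were −log10 q of at least 3, equal list lengths, an overlap of 0.5, windows of 250 kb and 1 Mb, other measures of height and the omission of each library.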

Additional observations from a re-analysis of the deposited data

Results flagged for a closer look

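The local background of subtelomeric relative to 2 to 5 Mb regions moved in opposite directions with IFNγ in the genotypes. It rose in both WT clones and fell in both KO clones, and the mean change in WT minus that in KO was 0.165 on the log2 scale. The difference was not tested, and it arose among 6 measures examined in this way. A further signal lay outside the regions described above. Within 500 kb of the ends of chromosome X, which was not among the chromosomes used, the 8 lists held 40 peaks, 3 to 7 per library, of 387 to 757 peaks on that chromosome. WT libraries held 4 to 6 of them and KO libraries 3 to 7.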

How the results depend on the processing

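The higher promoter share of subtelomeric regions kept its direction and call under every alternative except 4 clone means, where the difference of 12.5 percentage points, like the log2 differences of 0.34 in density and 0.21 in fold enrichment, could not pass the threshold (exact sign-flip permutation p = 0.125). Density was -0.12 within 250 kb, and fold enrichment 0.040 within 1 Mb, 0.035 at promoters and -0.050 away from them. The genotype difference in height was 0.027 with fold enrichment as the measure. TTAGGG was in 6.70% of windows of 150 bp either side of the summit. The subtelomeric WT-only count over all libraries was 0 at a −log10 q of at least 3, 0 in equal lists, 0 within 250 kb and 4 within 1 Mb. In untreated cells it was 6 in equal lists, 6 within 250 kb and 63 within 1 Mb, and after IFNγ 3 and 30 in the last 2 settings. KO-only counts were 4 in equal lists (IFNγ), and 1 (untreated) and 7 (IFNγ) within 1 Mb. Windows hold fewer or more regions by construction, and the cause of the other changes was not tested. Shares over all regions are not given for these presence counts or for those with single libraries left out, so they describe only. With uncentred fold enrichment 419 constant regions differed by genotype, and over the library background 1 differed by treatment.

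When single libraries were left out, WT-only counts ran from 1 to 8 over all libraries, 25 to 150 in untreated cells and 6 to 187 after IFNγ, and KO-only counts from 0 to 8 (untreated) and 0 to 58 (IFNγ), since 1 library then stands for a group. The highest counts came without untreated WT_5 (150), IFNγ-treated WT_4 (8 and 187), untreated KO_C5 (8) and IFNγ-treated WT_5 (58). The genotype difference in share ran from 0.0166 (without untreated WT_4) to 0.232 percentage points (without IFNγ-treated WT_4). The genotype difference in height ran from -0.057 to 0.028, above 0 without untreated WT_4 or untreated KO_C5. The treatment difference in share ran from -0.169 to 0.039 percentage points, above 0 without untreated WT_4, and the log2 background difference from -0.089 to -0.041, never past the threshold.

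With the replicate number as a block, the genotype difference was 0.126 percentage points in share and -0.01 in height (exact permutation p = 1 for both), and 0 constant regions differed. WT and KO libraries share only this number (correlation 0.42 untreated, -0.15 after IFNγ). With the clone as a block the treatment difference in share was -0.0826 (exact permutation p = 0.75) and 9 constant regions differed by treatment. The blocked fits changed no other call.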
